A study of Mus musculus and Rattus norvegicus with 43 samples.

Results

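Complement is a cascade of blood and tissue proteins that marks surfaces for removal. The 9 genes described here, chosen by name, span its steps in the mouse brain: the recognition genes C1qa, C1qb and C1qc, the central components C3 and C4b, the regulators Serping1 and Cd59a, and the receptors C3ar1 and C5ar1. All 9 were found by symbol among the 54532 gene rows of the mouse count table, and all 9 passed the filter on low counts that left 19413 genes for testing.

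In the classical pathway, C1q binds a target and its partner proteases cleave C4 and then C3, whose fragments are deposited on the target. In brain, C1q is made chiefly by microglia, the resident macrophages, and C1q and C3 are known for tagging synapses that microglia remove. C4b and Serping1 are known as genes that reactive astrocytes raise, and Cd59a encodes a membrane protein that blocks the final, pore-forming step.

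The study asked how gene expression in the striatum of mice differs after injection of miRNAs against Taf1, the gene of the largest protein in the TFIID transcription complex, which has a neuronal isoform. All animals were C57BL/6 mice, injected on postnatal day 0 and labelled as 4 months old, and the striatum of 1 hemisphere was sequenced as bulk RNA. The injection labels name a control miRNA (8 mice, here control), a C/N-TAF miRNA (5 mice, here CN) and an N-TAF miRNA (8 mice, here N). For 1 further mouse, with title number 1, that label repeats the tissue and age and names no injection, so this library is shown apart and entered no comparison. The sample descriptions of all mouse libraries end in the same control abbreviation whatever the injection label says, and groups follow the injection label. The labels do not say which vector, promoter or cell type carried the miRNAs, nor the sex of the animals.

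Libraries held 24.9 to 35.6 M counts (mega-counts). Taf1 was at 87.1 to 103.5 CPM (counts per common library total after TMM scaling, the unit of all levels below) in control, at 84.0 to 102.9 in N and at 96.4 to 104.6 in 4 CN libraries, while CN library 2 was at 50.5. Gene counts do not separate its isoforms. The 9 markers of striatal projection neurons were all detected, with Ppp1r1b at 1438 to 2777 CPM. A few libraries stood apart. CN library 2 and CN library 1 had the strongest dependence on transcript length, opposite in sign. This was measured as Spearman's rho across 15478 genes between exon length and the log2 difference from the control mean, and it was -0.53 and 0.38 in these libraries against -0.33 to 0.10 in the other libraries of the 3 groups. N libraries 3 and 7 had Gm15446 at 35.2 and 35.7 CPM, while each other library was at 0.946 or less. Control libraries 6 and 7 and N library 3 had Xist at 1066 to 1255 CPM while each other library had 1.17 or less.

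To compare levels between genes, CPM was divided by exon length in kilobases, taken over the exons of all annotated transcripts of a gene together. In control mice C1qa had the highest level per kilobase, at 55.2 ± 4.40 CPM per kb (SD, n = 8 for each value in this paragraph). C1qb followed at 46.8 ± 5.55 CPM per kb, and the ranges of these neighbours overlapped. Cd59a at 22.7 ± 1.83 and C1qc at 20.9 ± 2.16 CPM per kb were also neighbours with overlapping ranges. C4b was lower, at 13.5 ± 3.05 CPM per kb, and its highest control value (17.5) lay just below the lowest of C1qc (17.8). Of the 50-base windows of C4b transcripts, 34.6% also occur in the related gene C4a, and reads dropped there would lower the C4b value. The order of C4b and C1qc is therefore uncertain. The other 4 genes were lower still. Serping1 was at 1.38 ± 0.313, C3 at 0.537 ± 0.162, C3ar1 at 0.521 ± 0.0687 and C5ar1 at 0.279 ± 0.0717 CPM per kb. C3 and C3ar1 did not differ beyond their spread.

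**Figure D1:**
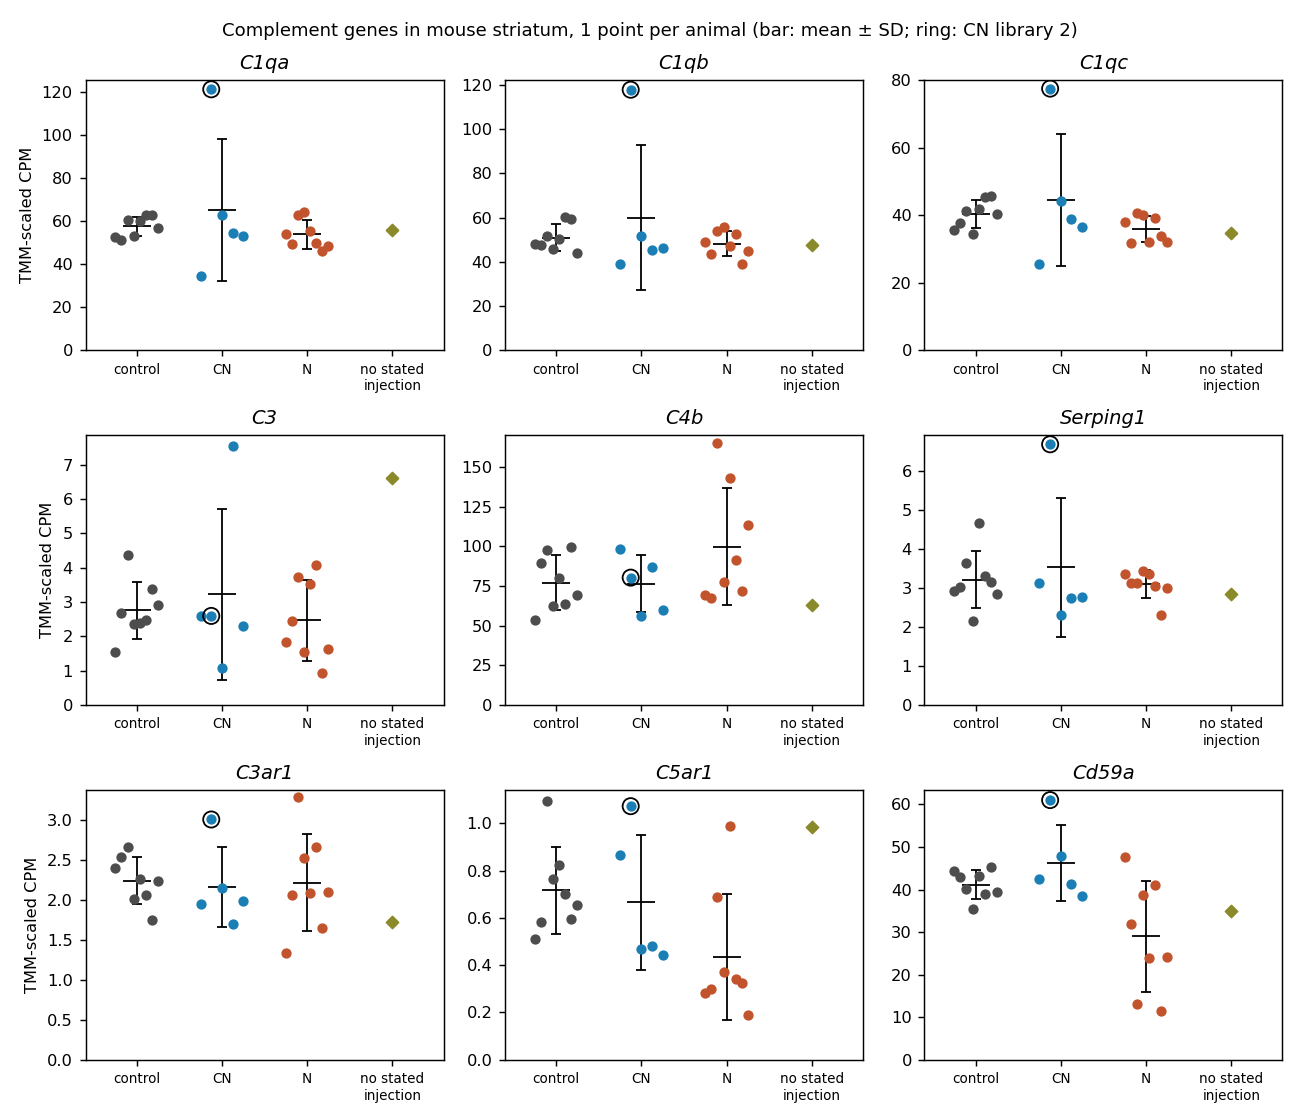
TMM-scaled CPM of the 9 complement genes (y axes) in each mouse, by injection group (x axes), with 1 point per animal and bars for mean ± SD. The ringed point is CN library 2, at 121.2 CPM for C1qa and 6.68 for Serping1, and N mice range from 11.5 to 47.7 CPM for Cd59a.

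None of the 9 genes was called as changed in any comparison between injection groups. The fitted differences of greatest size between N and control were a lower C5ar1, a lower Cd59a and a higher C4b. Of the 8 N mice, 6 were below every control for C5ar1 and 5 for Cd59a, where 1 was above. For C4b 3 were above every control. The C1q genes were at -0.16 to -0.07 (log2) for N against control, and their CN means were raised by 1 library. With edgeR's quasi-likelihood test and Benjamini-Hochberg adjustment over all genes, 0 of 9 members had an adjusted p under 0.05 for N against control, CN against control or CN against N. The background was 0% of the 19413 genes tested in each of these comparisons. At an unadjusted p under 0.05, 2 members were lower and 0 higher in N than in control, where 4.33% of all genes were lower and 5.06% higher. For CN against control the count was 0 in both directions, with 5.08% of all genes higher and 3.28% lower. For CN against N, 1 member (Cd59a) was higher and 0 lower, with 5.99% and 5.83% of all genes, and without CN library 2 the count was 0 in both directions (Cd59a had an unadjusted p = 0.061 by edgeR), with 7.85% and 7.83% of all genes. DESeq2 and limma-voom also called 0 of the 9, where DESeq2 called 0.17%, 0% and 0.414% of all genes in these comparisons and limma-voom 0% in each. Without CN library 2 edgeR called 0 of the 9 again, against 1% of all genes for N against control, 0% for CN against control and 0.356% for CN against N. The median log2 fold change of the 9 was -0.09 for N against control, 0.14 for CN against control and 0.30 for CN against N, where the medians over all genes tested were 0.0067, 0.00076 and 3.4e-05. Both CN medians turned negative without CN library 2, to -0.16 against control and -0.077 against N. The comparisons share groups and are therefore not independent. The p-values weigh each difference against the spread between these animals, which the fit estimated from the 3 groups together. CN library 2 thus also entered the error of N against control. There the SE of C1qa was 0.157 with this library and 0.0926 without it, and that of C4b 0.185 and 0.211.

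**Figure D2:**
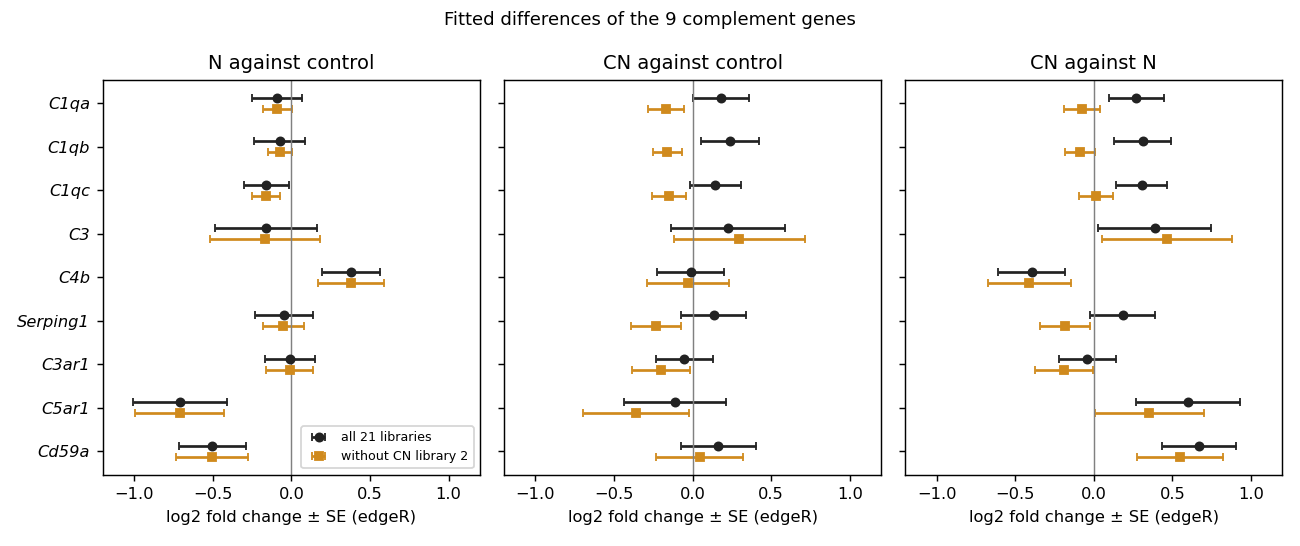
Fitted log2 fold change ± SE (x axes, edgeR) of each of the 9 genes (y axis) for the 3 comparisons, from all 21 libraries (black circles) and without CN library 2 (orange squares). The C1q genes turn from positive to negative for CN against control without that library (C1qa from 0.18 to -0.17). For N against control the fold changes could hardly move, because that library is in neither group compared.

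The 3 C1q genes encode the chains of the recognition molecule. In the reference annotation (GENCODE M21, GRCm38) they lie together on the minus strand of chromosome 4, between positions 136880129 and 136898803. Promoter sequences are given for C1qb and C1qc because these genes moved together across libraries; they are the 250 bases before the start in the RefSeq table for GRCm38.p6, which had entries for 6 of the 9 genes. Capitals mark the core recognised by PU.1, a transcription factor of microglia and other macrophages (letters GAGGAA, searched on both strands), for C1qc on the opposite strand. The regions are chr4:136886201-136886450 and chr4:136892915-136893164, both read from the minus strand.
C1qb: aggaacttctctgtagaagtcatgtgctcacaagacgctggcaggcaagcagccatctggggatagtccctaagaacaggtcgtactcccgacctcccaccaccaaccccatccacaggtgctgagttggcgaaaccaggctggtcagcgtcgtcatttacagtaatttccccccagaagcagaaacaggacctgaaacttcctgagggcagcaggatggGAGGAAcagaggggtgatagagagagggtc
C1qc: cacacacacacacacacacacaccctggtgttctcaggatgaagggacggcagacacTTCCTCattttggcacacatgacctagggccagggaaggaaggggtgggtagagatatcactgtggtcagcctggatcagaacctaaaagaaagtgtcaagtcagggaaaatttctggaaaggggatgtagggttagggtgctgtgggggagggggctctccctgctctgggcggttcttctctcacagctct
The match starts 30 bases before the start in C1qb and 193 bases before it in C1qc. These starts are those of RefSeq. In GENCODE M21 the C1qc gene reaches to position 136893065, so part of the bases shown for C1qc lies inside the gene of that annotation. The core was found in 3 of the 6 member promoters (C1qb, C1qc and Cd59a) and in 23.3% of 32851 promoters in the table, so a match is common, and it is a description of the letters only. Searched in the same way, an interferon-stimulated response element matched in 1 of the 6 (Cd59a) and in 2.98% of all promoters, a gamma-activated site (TTCNNNGAA) in 0 of the 6 and 7.02%, and an NF-kB site in 0 of the 6 and 1.21%.

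C1qa ranged in control from 51.3 to 62.6 CPM with a median of 58.3, and in N from 46.2 to 64.0 with a median of 51.9. In the 5 CN mice C1qa was at 34.4, 121.2, 62.6, 54.2 and 53.1 CPM. Control and N overlapped, and the CN group held both the lowest and the highest library of the 3 groups. C1qb ranged from 44.1 to 60.3 CPM in control (median 49.2) and from 38.8 to 55.6 in N (median 48.0). Its CN values were 39.1, 117.9, 51.5, 45.3 and 46.0 CPM, high again in library 2 and low in library 1. C1qc ranged from 34.4 to 45.7 CPM in control (median 40.8) and from 31.8 to 40.6 in N (median 35.8), with 4 of 8 N mice below every control. Its CN values were 25.5, 77.6, 44.3, 38.8 and 36.6 CPM.

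For N against control the log2 fold changes were -0.09 (SE 0.157) for C1qa, -0.07 (0.162) for C1qb and -0.16 (0.143) for C1qc. Their adjusted p-values by edgeR were 0.934, 0.95 and 0.821. An exact two-sided permutation test of log2 CPM, 1 of 27 such tests over members and comparisons and added after the data were seen, gave an unadjusted p of 0.0494 for C1qc over 12870 splits. For CN against control they were 0.18, 0.24 and 0.14 with all libraries and -0.17, -0.16 and -0.15 without CN library 2 (adjusted p by edgeR 0.662 or more before and 0.846 or more after). The sign of the CN difference was thus set by 1 of 5 libraries. The negative values without it still included CN library 1, where C1qa, C1qb and C1qc stood at 0.6, 0.768 and 0.632 times their control means. Values without both CN libraries 1 and 2 were smaller in size and are given with the alternative settings below.

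Over the 21 libraries the ratio of C1qa to C1qb counts was 0.881 to 1.29 with a median of 1.15, that of C1qa to C1qc 1.27 to 1.72, and that of C1qb to C1qc 1.09 to 1.53. In CN library 2, where the 3 genes stood at 1.92 to 2.32 times their control means, these ratios were 1.03, 1.56 and 1.52. Beyond the group means, the C1q genes rose and fell together across libraries. A family of 81 relations was tested on log2 CPM after subtraction of group means, 36 between members and 45 between a member and 1 of 5 marker list scores, in 20 libraries without CN library 2 (permutation tests within groups, 100000 resamples, Benjamini-Hochberg over the 81). C1qa and C1qc had r = 0.882 and rho = 0.848 (adjusted p 0.00259 and 0.00108), and r = 0.758 without CN libraries 1 and 3, the 2 farthest from the median of C1qa. C1qa and C1qb had r = 0.772 and rho = 0.851 (adjusted p 0.00202 and 0.00081), with r = 0.778 without the same libraries. C1qb and C1qc had r = 0.792 and rho = 0.863 (adjusted p 0.00202 and 0.00108), and 0.837 without control library 6 and N library 7. Of the 36 pairs of members these 3 passed by Pearson's r and the other 33 did not.

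The C1q genes also moved with the other genes of microglia. The score of 16 microglial markers (the mean log2 difference from control) had r = 0.731 and rho = 0.820 with C1qb (permutation adjusted p 0.0109 and 0.00223; r = 0.614 without control library 6 and N library 4). It had r = 0.721 and rho = 0.783 with C1qc (adjusted p 0.00259 and 0.0034; r = 0.724 without the same 2). For C1qa r was 0.582 and rho 0.674, and the first missed the threshold (permutation adjusted p 0.0538) while the second passed (0.0328). All 16 markers were tested and 0 were called in each comparison. Their summed level was 533 to 600 CPM in control, 538 to 706 in CN and 499 to 562 in N. Csf1r, the most abundant of them, was at 102 to 129.6 CPM. In N 16 of 16 microglial markers were on the lower side, with a median log2 fold change of -0.083. Of all 19413 genes tested, 9297 were on that side. It also held 10 of 10 endothelial markers (median -0.38) and 9 of 9 of striatal projection neurons (-0.2), while 7 of 8 astrocyte markers were higher. In bulk tissue, the number of microglia and the RNA per microglial cell cannot be told apart.

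**Figure D3:**
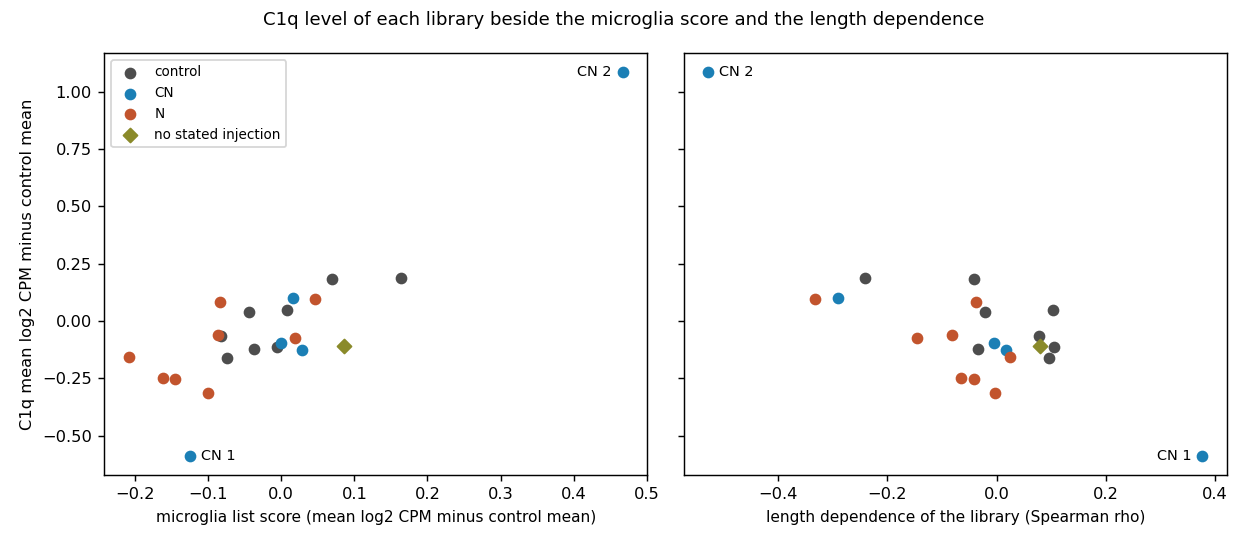
Mean log2 CPM of the 3 C1q genes minus the control mean (y axes) in each library, against the microglial list score (left x axis, log2) and against the dependence of the library on transcript length (right x axis, Spearman's rho). CN library 2 is at 1.08 on the y axis with the lowest rho (-0.53), and CN library 1 is at -0.59 with the highest (0.38).

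The 2 extreme CN libraries also differed from control by transcript length, though not every member followed the order of lengths. In CN library 2 the 2 members of shortest exon length, C1qa (1040 bases) and C1qb (1088 bases), stood at 2.11 and 2.32 times their control means, while the longest, C3 (5143 bases) and C4b (5695 bases), stood at 0.939 and 1.04 times. Serping1 (2325 bases) stood at 2.08 times there, above the shorter Cd59a (1811 bases) at 1.48 times. In CN library 1 C1qa stood at 0.600 times its control mean and C4b at 1.28 times, while Cd59a was at 1.03 times and the longer C3ar1 (4305 bases) and C3 at 0.873 and 0.940 times. Among microglial genes, Tyrobp, which encodes a short adaptor protein, was at 20.3 CPM in CN library 2 and 3.76 in CN library 1 against 6.63 to 10.3 in control. Cx3cr1, which encodes the fractalkine receptor, was at 64.0 and 76.2 CPM in these libraries against 57.7 to 69.8 in control. Both genes were chosen from the 16 microglial markers after their values were seen. The score of all 16 was at 0.467 in CN library 2 and -0.125 in CN library 1, against -0.082 to 0.164 in control. With the length dependence as a covariate, the log2 fold changes for CN against control were -0.08 for C1qa, 0.0045 for C1qb and -0.08 for C1qc (adjusted p 0.85 or more by edgeR, and between 0.229 and 1 over all alternative settings). For N against control this covariate gave lower values than the fit without it, at -0.24 for C1qa, -0.21 for C1qb and -0.29 for C1qc. Their adjusted p-values by edgeR were 0.191, 0.328 and 0.0727, and over the 33 alternative settings these lay between 0.191 and 0.991, 0.174 and 0.995, and 0.0727 and 0.973.

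The genes whose pattern was most like that of each C1q gene were sought among 13548 genes with a mean of at least 1 CPM, as a description without a test, over the same 20 libraries. For C1qa they included Slc25a4, the mitochondrial ADP/ATP carrier (r = 0.883), and C1qc (0.882). For C1qb they were Iscu, an iron-sulfur cluster scaffold (0.891), Enho (0.851) and Hibadh, an enzyme of valine breakdown (0.846). For C1qc they were Gstp1, a glutathione transferase (0.906), Slc25a4 (0.905) and Ndufa12, a subunit of respiratory complex I (0.904).

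C4b encodes the C4 protein whose fragment is deposited after C1q has bound. It ranged in control from 53.5 to 99.7 CPM with a median of 74.7, and was at 98.4, 80.2, 56.3, 86.9 and 59.8 CPM in CN. In N it ranged from 67.1 to 164.8 CPM with a median of 84.3. N libraries 3, 5 and 8, at 164.8, 142.9 and 113.1 CPM, were above every control, and the other 5 lay within the control range. The log2 fold change for N against control was 0.38 (SE 0.185, adjusted p = 0.534 by edgeR), and 0.24 without N library 3. Its adjusted p was between 0.33 and 0.914 over 33 alternative settings. For CN against control the difference was -0.01 (SE 0.211), and for CN against N it was -0.39 (SE 0.213, adjusted p = 0.468 by edgeR).

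C4b shares part of its sequence with C4a, which lies on the same strand of chromosome 17. In the annotated transcripts, 34.6% of the 50-base windows and 15.2% of the 100-base windows of C4b also occur in C4a, so reads could be split or dropped by the counting. C4a itself was at 3.44 ± 0.693 CPM in control (SD, n = 8) and 3.30 ± 0.942 in N (n = 8), and in N libraries 3, 5 and 8 it was at 3.32, 2.44 and 5.41.

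C4b rose and fell with markers of reactive astrocytes. The score of 18 such markers had r = 0.787 and rho = 0.716 with C4b (permutation adjusted p 0.00259 and 0.0123), and r = 0.681 without CN library 1 and N library 3. Serpina3n, a protease inhibitor gene of reactive astrocytes, was at 11.6, 11 and 9.51 CPM in N libraries 3, 5 and 8, the same mice in which C4b exceeded control, against 4.58 to 7.85 in control. Gfap, the astrocyte filament gene and the most abundant of the list, was at 290.6, 224.8 and 228.4 CPM there against 119.9 to 194.7 in control. Gfap also exceeded control in N library 6 (236.8 CPM), CN library 2 (225.3) and CN library 1 (210.2), where C4b was within the control range. The 18-marker score was at 0.45, 0.18 and -0.13 (log2 difference from the control mean) in N libraries 3, 5 and 8 against -0.30 to 0.30 in control, so of these 3 only N library 3 was above control by the whole list. None of the 18 markers was called by edgeR in any comparison, and their summed level was 216 to 321 CPM in control and 211 to 419 in N. The part of astrocyte number in the C4b values was not tested.

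The genes most like C4b in pattern were Trim30d (r = 0.921), Trim25 (0.875), a ubiquitin ligase of the RNA-sensing pathway, and Eif2ak2 (0.857), the double-stranded RNA-dependent kinase. The last 2 are known as interferon-inducible genes. The score of 10 interferon response genes was at 0.41, 0.91 and -0.47 (log2 difference from the control mean) in N libraries 3, 5 and 8, and at 1.43 and 1.03 in control libraries 3 and 7, where C4b was at 97.8 and 99.7 CPM. In CN libraries 2 and 4 the score was at 1.37 and 0.85, with C4b at 80.2 and 86.9 CPM, within the control range. The relation of C4b with this score was not tested.

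C3 encodes the component on which the pathways converge, and its level was low. It was counted with 29 to 266 reads per library. C3 ranged from 1.54 to 4.36 CPM in control (median 2.58) and from 0.938 to 4.07 in N (median 2.13). In CN it was at 2.60, 2.59, 1.09, 7.54 and 2.31 CPM. CN library 4 was above every control while CN library 3 was below every control. The log2 fold change was -0.16 (SE 0.323) for N against control and 0.22 (SE 0.361) for CN against control, with adjusted p-values by edgeR of 0.945 and 0.831. Without CN library 4 the CN value turned to -0.36, so its sign rested on 1 mouse. The relation of C3 with C4b had r = 0.626 and rho = 0.629 and missed the threshold (permutation adjusted p 0.0538 and 0.0724). With the reactive astrocyte score C3 had r = 0.54, which missed the threshold (permutation adjusted p 0.149), and rho = 0.666, which passed (0.0279), with r = 0.557 without CN library 1 and N library 3. The genes most like C3 were Bst2 (r = 0.814), an interferon-inducible membrane protein gene, Mapk15 (0.807) and Ifitm3 (0.796), an interferon-inducible antiviral gene. In CN library 4 Bst2 was at 7.06 CPM and Ifitm3 at 12.3, within control ranges that reached 8.35 and 13.6. Both were highest in CN library 2, at 12.8 and 19.9 CPM, where C3 was at 2.59.

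Serping1 encodes the C1 inhibitor, which stops the proteases bound to C1q. It ranged from 2.15 to 4.67 CPM in control (median 3.09) and from 2.30 to 3.44 in N (median 3.13), and N lay inside the control range. In CN it was at 3.12, 6.68, 2.30, 2.75 and 2.75 CPM, with library 2 alone above control. The log2 fold change was -0.05 (SE 0.185) for N against control, and for CN against control 0.13 (SE 0.208) with all libraries and -0.24 without CN library 2 (adjusted p by edgeR 0.974, 0.824 and 0.856). Serping1 moved with the reactive astrocyte score (r = 0.656, rho = 0.725, permutation adjusted p 0.0221 and 0.0123), and r was 0.753 without CN library 1 and N library 3. With the score of 8 fibroblast and leptomeningeal markers r was 0.718, but it missed the threshold (permutation adjusted p 0.0538), rho was 0.344, and without control libraries 4 and 5 r was 0.266. The summed level of those markers was 20.8 to 48.5 CPM in control, 21.4 to 38.7 in CN and 23.3 to 38.4 in N, with Col1a2 the most abundant. The genes most like Serping1 were Fmod (r = 0.815), which encodes a small matrix proteoglycan and is on that marker list, Bdh2 (0.746) and Txnip (0.715). Over all 21 libraries these values were 0.652, 0.746 and 0.329. For Fmod rho was 0.54 over the 20 libraries, and its lowest and highest levels were in control libraries 4 and 5 (1.15 and 5.37 CPM).

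**Figure D4:**
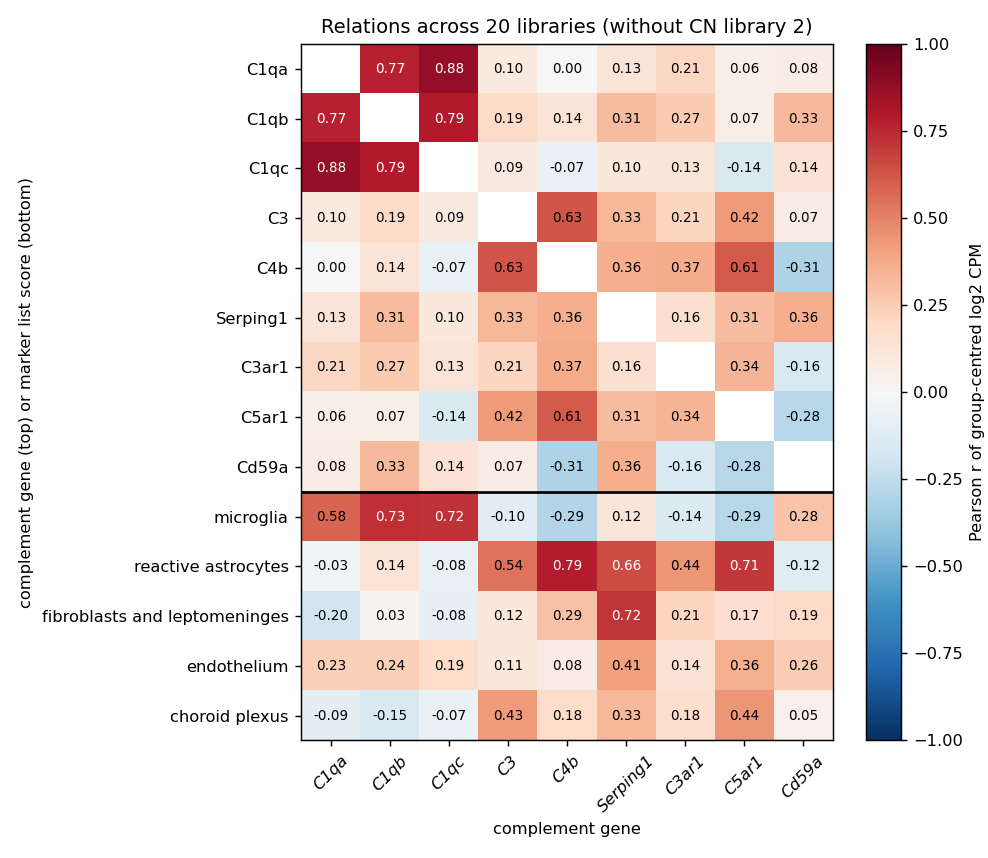
Pearson's r of group-centred log2 CPM between the 9 complement genes (columns) and each other gene or marker list score (rows) over 20 libraries. The C1q block reaches 0.77 to 0.88, the microglial score follows the C1q genes, and the reactive astrocyte score reaches 0.79 with C4b, 0.66 with Serping1 and 0.71 with C5ar1.

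Cd59a encodes the membrane inhibitor of the pore-forming complex, on the plus strand of chromosome 2, and it was the member whose level varied most among the N mice relative to control. Cd59a ranged in control from 35.4 to 45.3 CPM with a median of 41.5. In the 8 N mice it was at 47.7, 31.8, 13.1, 38.8, 23.9, 41.0, 11.5 and 24.1 CPM. N libraries 2, 3, 5, 7 and 8 were below every control, N library 1 was above every control, and the other 2 lay within. In CN it was at 42.5, 61.0, 47.8, 41.2 and 38.4 CPM, with no library below control.

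The log2 fold change of Cd59a for N against control was -0.50 (SE 0.211, unadjusted p = 0.0258, adjusted p = 0.451 by edgeR), and 7 of 8 N mice were below the control mean. For CN against N it was 0.67 (SE 0.236, unadjusted p = 0.00963, adjusted p = 0.271 by edgeR), and 0.55 without CN library 2. For CN against control it was 0.16 (SE 0.237, adjusted p = 0.808 by edgeR). Without N libraries 3 and 7 the N value was -0.25 and the CN against N value 0.42. Over the 33 alternative settings the adjusted p for N against control was between 0.189 and 0.844 and for CN against N between 0.129 and 0.635. The exact permutation test gave an unadjusted p of 0.0216 over 12870 splits for N against control and 0.0435 over 1287 splits for CN against N.

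The spread itself set Cd59a apart from most genes. The SD of its log2 CPM was 0.755 in N and 0.119 in control, a ratio of 6.37. Among 15486 genes with a mean of at least 1 CPM the median ratio was 1.17, and 0.0517% of genes had a higher ratio than Cd59a. Without N libraries 3 and 7, left out after the data were seen, the SD in the other 6 N mice was 0.413 and the ratio 3.49, which 1.08% of genes exceeded. C5ar1 and C3ar1 had ratios of 2.08 and 2.07, which 9.91% and 10.1% of genes exceeded, and Serping1 had 0.576. C5ar1 itself averaged 0.597 CPM, below that limit. Its 5 to 26 reads per N library add counting noise to its spread, so its place among these genes is uncertain.

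The pattern of Cd59a over mice was shared by a few other genes. Wdfy1 was most like it (r = 0.888 over 20 libraries), but only through N libraries 3 and 7, where Wdfy1 was at 19.95 and 18.8 CPM against 43.2 to 55.8 in each other library of the 3 groups. Without these 2 libraries r was 0.425. Slc17a8, the vesicular glutamate transporter that striatal cholinergic interneurons use, had r = 0.867, and 0.755 without them. It was at 9.46, 12.2, 11.7 and 14.4 CPM in N libraries 3, 5, 7 and 8, against 20.2 to 23.8 in control. Ecel1, an endopeptidase gene, had r = 0.834, and 0.674 without them, with 28.1, 37.6, 35.0 and 40.3 CPM in the same 4 mice against 53.5 to 59.8 in control. Chat, which makes acetylcholine and defines the cholinergic interneurons, was chosen after its values were seen and was at 14.8, 17.3, 18.6 and 21.1 CPM in those mice against 25.9 to 32.3 in control. The match was not complete. N libraries 4 and 6 had Chat at 24 and 23.5 CPM and Slc17a8 at 16.7 and 18.4 CPM, below every control, with Cd59a within the control range (38.8 and 41.0 CPM). N library 2 had Cd59a below control (31.8 CPM) with Chat within its control range (27.6 CPM), and CN library 2 had the highest Cd59a (61.0 CPM) with low Slc17a8 (14.3 CPM) and low Chat (18.4 CPM).

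**Figure D5:**
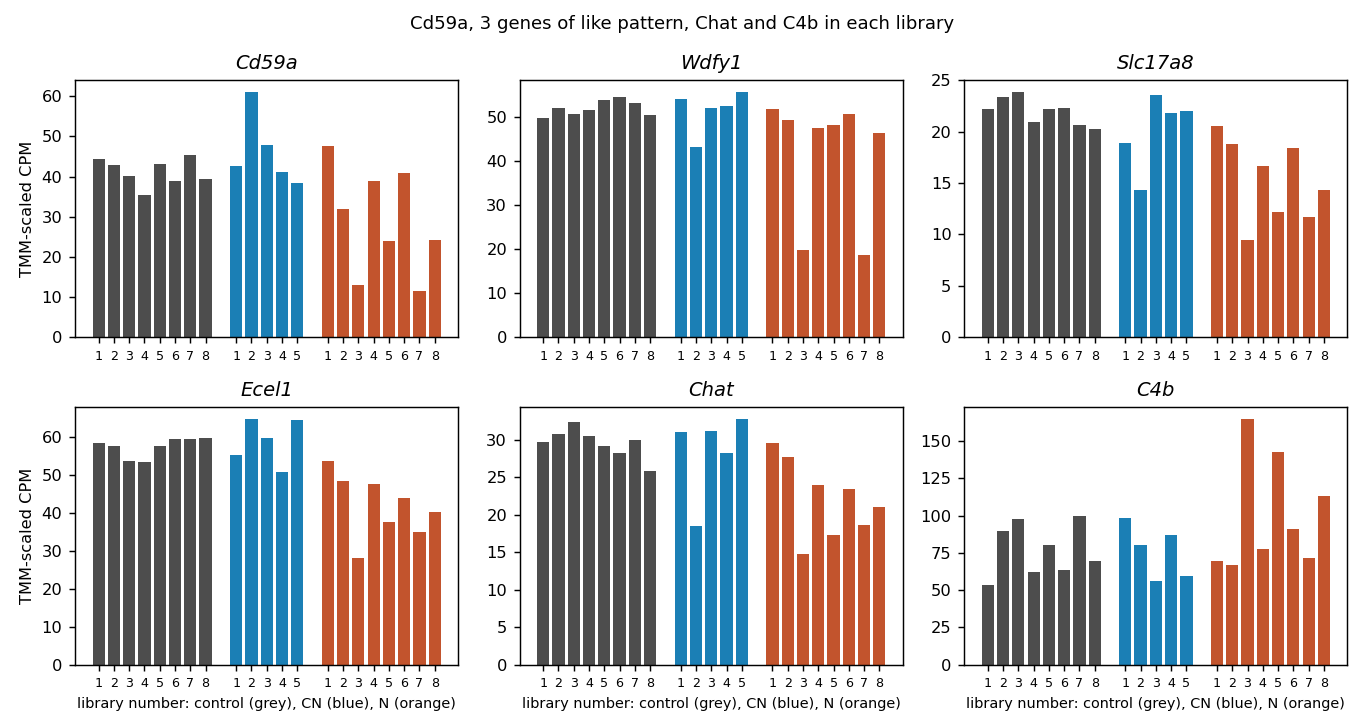
TMM-scaled CPM (y axes) of Cd59a, its 3 genes of most like pattern, Chat and C4b in each library (x axes: library numbers, with control in grey, CN in blue and N in orange). N libraries 3 and 7 are lowest in Cd59a (13.1 and 11.5 CPM) and Wdfy1, and N libraries 3, 5 and 8 are highest in C4b.

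Its paralogue Cd59b lies next to it on chromosome 2, and 3.87% of the 50-base windows of Cd59a occur in Cd59b. Cd59b was at 2.48 ± 0.346 CPM in control (SD, n = 8) and 1.98 ± 0.627 in N (n = 8), with 5 of 8 N mice below every control, and its log2 fold change for N against control was -0.31 (adjusted p = 0.587 by edgeR). The promoter of Cd59a is given because this gene differed most in spread, with the PU.1 core in capitals 62 bases before the start. It is chr2:104095551-104095800 on the plus strand of GRCm38.p6, from RefSeq.
Cd59a: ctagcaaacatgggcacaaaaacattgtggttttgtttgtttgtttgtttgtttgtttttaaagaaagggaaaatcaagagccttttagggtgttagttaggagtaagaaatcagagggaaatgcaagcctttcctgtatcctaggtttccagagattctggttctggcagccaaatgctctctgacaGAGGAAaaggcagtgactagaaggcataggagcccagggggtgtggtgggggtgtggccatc

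C5ar1 encodes the main receptor for the C5a fragment, and it was the least abundant member, with 5 to 36 reads per library. It ranged from 0.513 to 1.10 CPM in control with a median of 0.677, and from 0.188 to 0.990 in N with a median of 0.333. Of the 8 N mice, 6 were below every control, while N libraries 3 and 5 were at 0.689 and 0.990 CPM. In CN it was at 0.866, 1.07, 0.467, 0.482 and 0.443 CPM, and 3 of 5 were below every control. The log2 fold change for N against control was -0.71 (SE 0.297, unadjusted p = 0.0253, adjusted p = 0.449 by edgeR). The value was between -0.98 (without N library 5) and -0.60 (without control library 3) and the adjusted p between 0.165 and 0.678 over 33 alternative settings. The exact permutation test gave an unadjusted p of 0.0132. For CN against control it was -0.11 (SE 0.324), and for CN against N 0.60 (SE 0.333, adjusted p = 0.483 by edgeR). Without CN library 2 these were -0.36 and 0.35, and without CN libraries 1 and 2 they were -0.63 and 0.081. C5ar1 had r = 0.707 with the reactive astrocyte score (permutation adjusted p 0.02), but rho = 0.592 missed the threshold (0.066), and r was 0.588 without CN library 1 and N library 3. The genes most like it were Slc2a13 (r = 0.834), Vax1 (0.805) and Cbx3 (0.799). Over all 21 libraries the value for Slc2a13 was -0.0309.

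C3ar1 encodes the receptor for the C3a fragment and is known as a microglial gene. It ranged from 1.76 to 2.66 CPM in control (median 2.25) and from 1.34 to 3.29 in N (median 2.10), with 2 of 8 N mice above and 2 below every control. In CN it was at 1.96, 3.01, 2.15, 1.70 and 1.99 CPM. The log2 fold change was -0.01 (SE 0.160) for N against control, -0.05 (SE 0.182) for CN against control and -0.04 (SE 0.182) for CN against N, with adjusted p-values by edgeR of 0.994, 0.928 and 0.94. Its r with the microglial score was -0.14 and with the C1q genes 0.13 to 0.27, and none of these relations passed. The genes most like it were Twistnb (r = 0.765), Ggta1 (0.752) and Rsl1d1 (0.743).

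The rest of the pathway is described from a list of 50 other complement genes, of which 35 were tested. For each comparison 0 were called by edgeR, and limma-voom also called 0. DESeq2 called 1, Sez6l, for CN against N. At an unadjusted p under 0.05 the counts by edgeR were 1 higher and 4 lower for N against control, 0 and 4 for CN against control, and 1 and 3 for CN against N. Their median log2 fold changes were -0.00013, -0.015 and -0.052. Of 17 genes of initiation and amplification 10 were tested, with Cfp, which encodes properdin (11.5 CPM on average over the 21 libraries), Masp1 (5.98) and C4a (3.31) the most abundant. The gene of smallest p among them was C2, whose product pairs with C4b protein, at -0.78 for CN against N (unadjusted p = 0.00969, adjusted p = 0.272 by edgeR). Of 7 genes of the terminal pathway 3 were tested, namely C8g (2.61 CPM), C7 (1.29) and Hc, which encodes C5 (0.589). C6, C8a, C8b and C9 averaged 0.061 CPM or less.

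Of 8 other receptors 7 were tested, with C1qbp (46.0 CPM), Itgam (7.99) and Itgb2 (7.07), the last 2 the chains of complement receptor 3, the most abundant. C5ar2, a second C5a receptor, had the smallest p for CN against control, at -0.76 (unadjusted p = 0.00555, adjusted p = 0.59 by edgeR). Cd93 was at -0.36 for N and -0.42 for CN against control (adjusted p 0.426 and 0.59 by edgeR), and the summed level of 10 endothelial markers was 394 to 461 CPM in control, 272 to 389 in CN and 269 to 377 in N. Of 18 regulators 15 were tested, led by Clu, which encodes clusterin (760.5 CPM), and the neuronal genes Sez6 (588.4) and Sez6l2 (288.3). Sez6l had the smallest p for CN against N, at -0.60 (unadjusted p = 0.000269, adjusted p = 0.13 by edgeR), with 36.7 ± 4.70 CPM in CN (SD, n = 5) and 55.2 ± 11.5 in N (n = 8). It also had the smallest p for N against control, at 0.32 (unadjusted p = 0.0139, adjusted p = 0.378 by edgeR).

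The library without a stated injection was within the control range for C1qa (55.8 CPM), C1qb (47.7), C1qc (34.8), C4b (63.0), Serping1 (2.83) and C5ar1 (0.983). It was above it for C3 (6.61 CPM) and below it for C3ar1 (1.73) and Cd59a (35.0). Its 7 leukocyte markers summed to 20.3 CPM and its 5 red cell markers to 81.9, while the highest values in the 3 groups were 4.79 and 35.2.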

How the data were processed

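Bulk RNA sequencing of mouse striatum was analysed from the table of raw read counts per gene that the authors deposited, with 1 column per animal. The submitters' processing notes name STAR, featureCounts and edgeR without versions or settings, and GRCh38, a human build, although row identifiers are those of mouse genes. Since this leaves the build open to doubt, coordinates and lengths come from GENCODE M21 (GRCm38) and RefSeq (GRCm38.p6), and the strand setting is not given in the sources used here. Of 54532 rows, 54409 matched a symbol, and the 123 others held 0.07% of the counts. The table of the rat libraries was not used.

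Groups follow the injection labels, and replicates were numbered in the order of the records. The 21 libraries of the 3 groups entered 1 edgeR quasi-likelihood fit on the deposited counts (edgeR 4.0.16, limma 3.58.1, R 4.3.3; TMM, filterByExpr, robust), with Benjamini-Hochberg adjustment over 19413 genes and a threshold of 0.05. DESeq2 1.42.0 and limma-voom were alternatives. The closest pair within a group differed by 5.91 times sampling noise, so none was counted as a duplicate. At 10 CPM or more the median SE of a log2 fold change was 0.0808 for N and 0.092 for CN against control. List scores and relations used log2 CPM with a prior count of 2. Procedures were tested on simulated data.

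The 9 members, the lists and the tests were chosen with earlier results of these data known. Named genes were the 9 members, Taf1, the 3 genes of highest r with each member (mean of at least 1 CPM), and for the other complement genes those called, the 3 most abundant per class and those of smallest p (some genes so chosen are left out of the text). Of marker lists the most abundant gene was named, as were those under 0.5 CPM, namely Lyve1, Pf4 and Ms4a7 of border macrophages, S100a8, Ly6c2, Ccr2, Plac8, Cd3e and Cd79a of leukocytes, Hba-a2 of red cells and Steap4 of reactive astrocytes. Gm15446, Xist, Chat, Tyrobp, Cx3cr1, Serpina3n, C1ra, C1s1, Cd59b and Cd93 were named after their values were seen.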

Additional observations from a re-analysis of the deposited data

Results flagged for a closer look

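Of the 27 sets of values (9 genes in 3 groups), 4 held a library set apart from the rest of its group by Dixon's criterion, where chance flags about 1 in 20 groups. C1qb in CN library 2 was at 117.9 CPM, far above the other 4 CN mice, and Serping1 in the same library was at 6.679 CPM. C3 in CN library 4 was at 7.542 CPM, above the other 4. Serping1 in N library 7 was at 2.297 CPM, below the other 7 N mice, though inside the control range.

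In the library without a stated injection, 3 complement genes were above every control, among the 9 genes and a few others chosen after their values were seen. C3 was at 6.607 CPM (highest control 4.357). C1ra and C1s1, the genes of the C1 proteases, were at 3.264 and 5.388 CPM (highest controls 0.6984 and 0.9961). The same library had 582.6 CPM summed over 10 endothelial markers, against 394 to 461 in control. Its injection is not given, so these values belong to no group.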

How the results depend on the processing

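None of the 9 genes was called under any of 33 alternative settings in the 3 comparisons (99 of 99 counts of 0). Among 27 fitted differences under 34 settings, 856 of 918 values kept their sign, 8 differences never changed it, and the largest value of changed sign was 0.363 in size. The cause of each change was not tested.

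With the microglial score as a covariate, N against control became 0.10 for C1qa, 0.15 for C1qb, 0.025 for C1qc, 0.11 for Serping1 and 0.055 for C3ar1. CN against control became -0.10 for C1qa, -0.065 for C1qb, -0.10 for C1qc, 0.019 for C4b and -0.10 for Serping1, and CN against N became -0.21 for C1qa, -0.21 for C1qb, -0.13 for C1qc and -0.21 for Serping1. Without CN libraries 1 and 2 (settings here and below were chosen after seeing the data, apart from limma-voom and the control split), CN against control became -0.028, -0.10 and -0.022 for C1qa, C1qb and C1qc and -0.31 for Serping1, and CN against N -0.029 for C1qb and -0.26 for Serping1. With the length covariate, CN against control became -0.078 for C1qa, -0.077 for C1qc, 0.047 for C4b and -0.0056 for Serping1. Without N libraries 3 and 7, Serping1 was at 0.0047 for N against control and C3ar1 at 0.021 for CN against N. Without the 3 libraries of high Xist, C4b was at 0.020 for CN against control and C3ar1 at 0.069 for CN against N. Without controls of title number over 25, N against control was 0.025 for C1qb and 0.089 for Serping1, and CN against control was 0.040 for C4b. C3 for CN against control was -0.00098 by limma-voom and -0.0036 as a mean log2 difference in the permutation test.

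Leaving out 1 library at a time, CN against control ranged from -0.17 to 0.34 for C1qa, -0.16 to 0.36 for C1qb, -0.15 to 0.29 for C1qc, -0.36 to 0.45 for C3, -0.12 to 0.084 for C4b, -0.24 to 0.26 for Serping1, -0.20 to 0.026 for C3ar1 and -0.36 to 0.0039 for C5ar1. CN against N ranged from -0.077 to 0.43 for C1qa, -0.087 to 0.43 for C1qb, -0.20 to 0.61 for C3, -0.18 to 0.31 for Serping1 and -0.19 to 0.063 for C3ar1. N against control ranged from -0.12 to 0.045 for Serping1 and -0.12 to 0.068 for C3ar1.

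The count of all genes called moved more. For N against control it was 64 by DESeq2, 209 in a fit of these groups alone, 1174 with the microglial covariate, 300 without CN libraries 1 and 2, 53 with the length covariate, and 0 to 197 (without CN library 2) on leaving out 1 library. For CN against N it was 8 without a filter on low counts, 156 by DESeq2, 2 with the microglial covariate, 4 without CN libraries 1 and 2, 172 with the length covariate, and 0 to 70 on leaving out 1 library. For CN against control it was 0 to 1. Of other complement genes DESeq2 and the length covariate each called 1 (Sez6l) for CN against N, and the microglial covariate called 2 (Clu and C1qbp) for N against control. Of the 81 relations 8 passed, and 12 with all 21 libraries, 11 without TMM and 9 without N libraries 3 and 7.

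No paired analysis was possible because replicate numbers were given in the order of the records and the labels share none between groups. C5ar1, C3, Serping1 and C3ar1 were counted with few reads, down to 5 per library, which limits the precision of their differences.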
